A study of Mus musculus with 6 samples.

Results

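The genes of nucleolar ribosome biogenesis, whose proteins transcribe, modify, cut and assemble ribosomal RNA into ribosomal subunits, were followed across 3 mouse cell populations. The set was a list of 48 genes named by function: 5 of RNA polymerase I transcription, 4 of a box C/D group (the core of these small nucleolar particles, with Nolc1) and 4 of the box H/ACA particles, 14 of the small and the others of the large subunit's assembly, general nucleolar proteins, and 2 enzymes of polyamine synthesis. Each gene was read from the probe set with the highest mean signal among those mapped to that gene alone. By that rule 47 of the 48 were measured, out of 19938 genes on the array. Noc2l was not analysed here.

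RNA of 3 populations was hybridised to single-colour Affymetrix gene arrays, 2 arrays a population. All 3 descended from bone marrow cells carrying the NUP98-HOXB4 fusion, a transduced transcription factor fusion that lets progenitors expand in culture. HSC were such cells expanded with IL6 and SCF. ProT were such cells grown with IL7 and the Notch ligand DLL4, labelled as committed T cells, and DP were double positive thymocytes that arose after ProT cells were injected into Rag2-/- mice. These hosts cannot rearrange antigen receptor genes and so make no double positive thymocytes of their own, but keep thymic stroma, early thymocytes, macrophages and natural killer cells. There was no population without the fusion. Every DP cell had been in an animal and every HSC and ProT cell in culture, so stage, site and growth factors cannot be told apart in the DP comparisons. The labels do not say whether the 2 arrays of a population came from separate cultures or animals, and if they are technical the p-values describe no more than technical spread.

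Ribosome production starts in the nucleolus, where RNA polymerase I transcribes a long precursor RNA from repeated genes. Small nucleolar particles modify that precursor, the small subunit processome folds and cuts its first part, and a chain of GTPases, helicases and scaffold proteins matures the large subunit. The work rises with growth, and in the thymus it is known to be high in dividing precursors and low in the small resting double positive cells that make up most of the organ. Polyamine synthesis belongs to the same growth program, and MYC proteins are known activators of many genes of both.

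The labels were checked against defining markers: 9 of 9 early T markers were called higher in ProT than in HSC, 9 of 9 double positive markers higher in DP than in ProT, and 8 of 8 progenitor and myeloid markers lower in DP than in HSC. In ProT against HSC only 4 of those 8 were lower, 1 (Kit) was higher and 3 were not called. Markers of other cells also moved. In DP against ProT 14.5% of all genes were called higher and 18.1% lower. From ProT to DP, 8 of 8 mast cell markers were lower, with a mean log2 signal of 9.60 and 9.71 in ProT against 5.43 and 5.38 in DP and 6.07 and 5.94 in HSC. Of 8 natural killer markers, 5 were lower and 1 higher, with means of 8.73 and 8.65 in ProT, 6.80 and 6.67 in DP and 5.41 and 5.38 in HSC. In the other direction, 5 of 8 macrophage markers were higher in DP and 1 lower (means of 7.03 and 7.0 in DP, 6.60 and 6.40 in ProT, 6.68 and 6.93 in HSC). Of 10 markers of thymic epithelium and stroma, 6 were higher in DP and 1 lower (7.55 and 7.57 in DP, 7.25 and 7.18 in ProT, 6.89 and 6.76 in HSC), and all 6 B cell markers were higher (7.15 and 7.11 in DP, 6.22 and 6.10 in ProT, 6.25 and 6.28 in HSC), although only 1 of the 6 passed the median signal of all genes, 7.17, on any array. Of 4 erythroid markers 1, Alas2, was higher (list means of 7.04 and 7.12 in DP, 6.40 and 6.37 in ProT, 6.49 and 6.45 in HSC). The same median was passed on any array by 5 of 8 macrophage, 5 of 10 stromal and 1 of 4 erythroid markers. It was passed by 7 of 8 mast cell and 6 of 8 natural killer markers. The part of these cells in the results below was not tested. No marker can be said to be at 0, since the lowest value on any array was 3.22.

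Most of the 47 genes fell in DP, and none was called as changed in ProT against HSC. A gene was called where limma, fitted on all genes and all 6 arrays, gave a Benjamini-Hochberg adjusted p below 0.05, and changes are differences of mean log2 signal. In DP against ProT, 39 of the 47 were lower, 1 (Wdr12) was higher and 7 were not called, where 18.1% of all genes were called lower and 14.5% higher. The median change of the 47 was -0.82, a 1.77-fold fall that leaves 56.5% of the ProT signal, beside a median of 0.02 over all genes. In 17 of the 39 the fall reached 2-fold, where 7.12% of all genes fell that far. Without DP replicate 1 the count of 39 was 21, and without DP replicate 2 it was 20. Each of these fits leaves 1 DP array, which is assumed to vary like the others. For fits without an array, here and below, the share of all genes called is not given. Whether such counts moved with the whole array therefore cannot be told from them.

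In ProT against HSC none of the 47 was called in limma, where 7.85% of all genes were called higher and 6.9% lower. The median change was -0.01, as it was over all genes, and the range was -0.42 to 0.37. At an unadjusted p below 0.05 there were 3 (Dkc1, Noc3l and Npm1, each lower in ProT), beside 26.5% of all genes, and the smallest adjusted p was 0.0971, for Dkc1. The 95% interval of the change included 0 for 44 genes and lay within 2-fold in either direction for 46. Its median half-width was 0.39, and with the adjustment over all genes changes as large as -0.42, in Noc3l, were not called. The lack of calls did not hold without HSC replicate 1 or without ProT replicate 2. Leaving out HSC replicate 1 turned the sign of 7 of the 47 changes, and HSC replicate 2 of 13. Leaving out ProT replicate 1 turned 15, and ProT replicate 2 turned 18.

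In DP against HSC 37 of the 47 were lower, 2 (Wdr12 and Emg1) were higher and 8 were not called, where 18.8% of all genes were lower and 16% higher. The median change was -0.92, beside 0.02 over all genes, and 15 genes fell at least 2-fold, where 8.66% of all genes did. Without DP replicate 2 the 37 became 22. The DP arrays enter both DP comparisons, so their calls are not independent of each other; 36 genes were lower in both. Both DP arrays lay below all 4 other arrays for 42 of the 47, as they did for 23.5% of all genes.

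The fall at the second step was also set against the change at the first. In the test of the difference between the 2 steps (DP minus ProT, less ProT minus HSC), 18 of the 47 were called lower and none higher, where 11.8% of all genes were called lower and 9.17% higher. The median difference was -0.87. The 18 were Polr1a, Polr1b, Fbl, Nolc1, Nop14, Nat10, Tsr1, Pes1, Nop16, Rrp1b, Rrs1, Gnl3, Gtpbp4, Mrto4, Ddx21, Mybbp1a, Odc1 and Srm. ProT enters both steps with opposite sign, so this count leans on the 2 ProT arrays: it was 28 without ProT replicate 2 and 3 without ProT replicate 1. It was also 5 without DP replicate 1 and 2 without DP replicate 2.

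**Figure D1:**
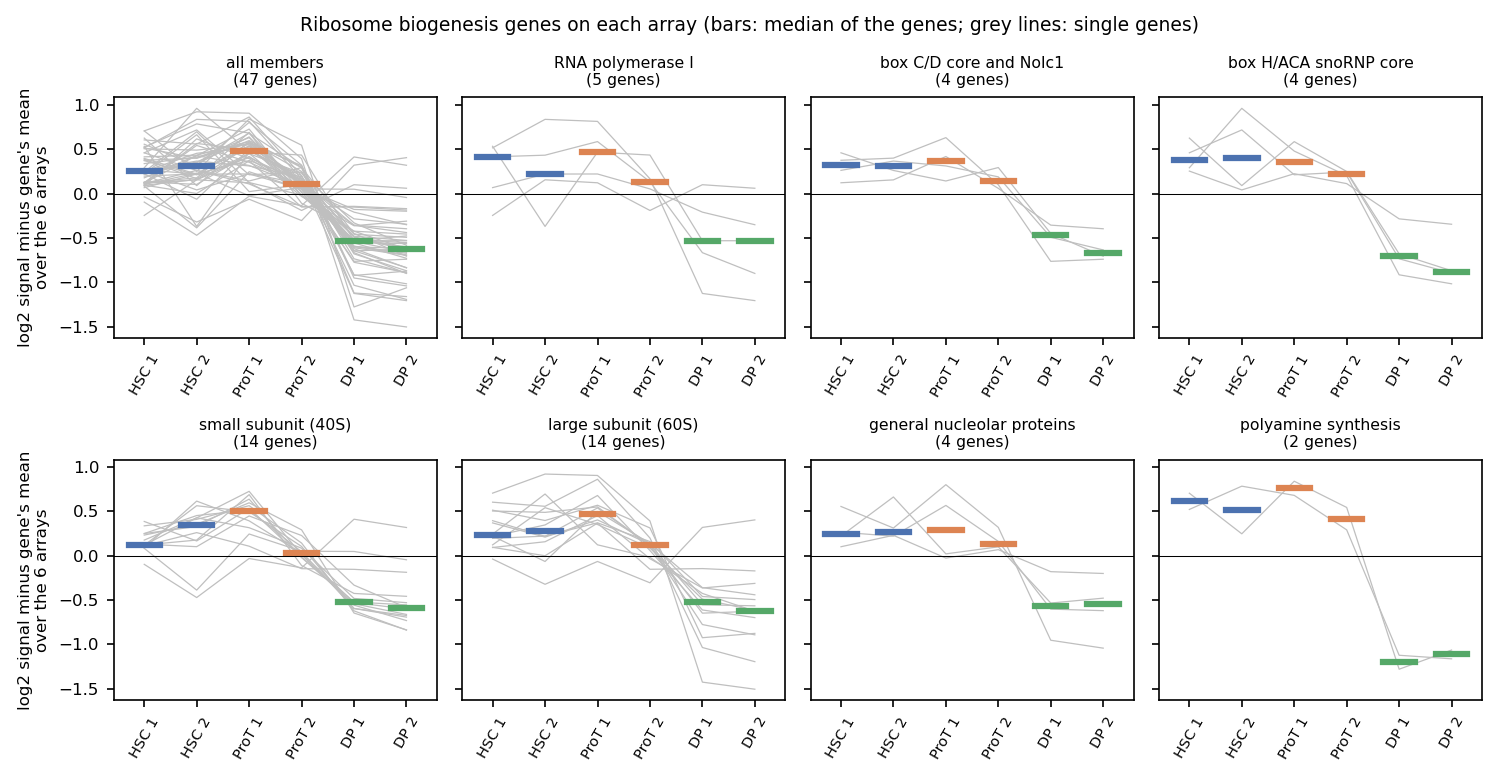
Log2 signal of each measured gene minus its own mean over the 6 arrays (vertical axis) on each array (horizontal axis), for all 47 genes and for each role; grey lines are single genes and bars are medians. Over all genes of the set the bars sit at 0.25 and 0.31 in HSC, 0.48 and 0.11 in ProT and -0.53 and -0.62 in DP.

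The plot of signal by array also shows that the ProT arrays were not equal. ProT replicate 1 lay above replicate 2 in 43 of the 47 genes, by a median of 0.34 and a range of -0.15 to 0.80, while over all genes 58.4% were higher in replicate 1 and the median gap was 0.03. The HSC arrays showed no common direction, with replicate 1 above replicate 2 in 19 genes (median gap -0.06), while DP replicate 1 lay above replicate 2 in 40, by a smaller median of 0.08, where 54.8% of all genes were higher in DP replicate 1. Of the 2 ProT arrays, the lower one was still above both DP arrays in 43 genes, where 32.9% of all genes had DP arrays wholly below ProT arrays. In DP against HSC 43 genes also had no overlap downward, where 32.1% of all genes did. In ProT against HSC only Nop14 was higher on both ProT arrays (25.1% of all genes), and Dkc1, Imp4, Noc3l, Ncl and Npm1 were lower on both (27% of all genes).

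These are bulk measurements, labelled from equal amounts of total RNA, so fewer cells of a type and less RNA per cell cannot be told apart, and a change in total RNA per cell leaves no trace in the values.

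Promoter sequence was available for 41 of the 47 genes as RefSeq windows of build GRCm38.p6, from 250 bases before to 50 after each transcription start. They were searched on both strands for 4 motifs, none of which contains another: the E-box CACGTG, the site known for MYC and related factors; CCGGAAGT, known for ETS factors; GCGCATGC, known for NRF1; and the GC box GGGCGG. The E-box stood in 9 of the 41 genes, 22%, beside 8.09% of all genes with a window and 8.91% of protein-coding ones. CCGGAAGT stood in 10, 24.4%, beside 4.31% and 5.69%. The GC box stood in 30, 73.2%, beside 38.2% and 49.2%, and GCGCATGC in 1, 2.44%, beside 3.05% and 3.93%. A match describes letters in the window and not a bound site. As for direction, 7 of the 33 genes with a window that were lower in DP against ProT held the E-box, 21.2%, and 2 of the 8 that were not, 25%. CCGGAAGT stood in 9 of the 33, 27.3%, and in 1 of the 8, 12.5%.

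The E-boxes are shown with up to 10 bases on each side, on the strand of the gene, with the motif in capitals and its first base counted from the start; Rrn3 held a pair. They range from Mybbp1a and Tsr1, among the deeper falls, to Imp4 and Nle1, which were not called in DP against ProT.
Rrn3, chr16:13780474-13780499, + strand, base -215: gcgccaaggtCACGTGcacacgcctc
Rrn3, chr16:13780641-13780666, + strand, base -48: acgctctgctCACGTGggccgcgtcc
Wdr43, chr17:71616222-71616247, + strand, base 18: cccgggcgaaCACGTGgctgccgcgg
Imp4, chr1:34439698-34439723, + strand, base -121: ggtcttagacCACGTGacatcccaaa
Ltv1, chr10:13193094-13193119, - strand, base 29: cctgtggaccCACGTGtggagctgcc
Tsr1, chr11:74898094-74898119, + strand, base 25: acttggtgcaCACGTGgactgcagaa
Pes1, chr11:3963967-3963992, + strand, base 3: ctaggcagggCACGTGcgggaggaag
Nop2, chr6:125131813-125131838, + strand, base -60: gtccctggatCACGTGtgttccggtg
Nle1, chr11:82908357-82908382, - strand, base 24: ggttctcctcCACGTGgggacgcagg
Mybbp1a, chr11:72441357-72441376, + strand, base 41: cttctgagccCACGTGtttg

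The 120 bases before the start are shown next for 5 genes: the pair with the largest falls (Rrp1b, chr17:32036042-32036161 on the + strand, and Odc1, chr12:17544753-17544872, +), one with an E-box close before the start (Nop2, chr6:125131763-125131882, +), and the pair with the highest changes (Wdr12, chr1:60098501-60098620, -, and Emg1, chr6:124712179-124712298, -). Capitals mark any of the 4 motifs. None of the 4 stands in the stretch of Rrp1b. That of Odc1 holds 3 GC boxes, that of Wdr12 holds 1, and that of Emg1 holds 3 beside 2 copies of CCGGAAGT.
Nop2: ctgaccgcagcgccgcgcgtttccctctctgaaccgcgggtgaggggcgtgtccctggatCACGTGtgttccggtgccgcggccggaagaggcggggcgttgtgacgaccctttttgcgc
Rrp1b: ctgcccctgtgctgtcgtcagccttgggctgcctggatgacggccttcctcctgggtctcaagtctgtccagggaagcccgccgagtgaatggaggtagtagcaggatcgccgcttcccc
Odc1: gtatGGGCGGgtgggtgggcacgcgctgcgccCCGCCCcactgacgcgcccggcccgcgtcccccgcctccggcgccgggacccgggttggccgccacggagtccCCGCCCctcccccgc
Wdr12: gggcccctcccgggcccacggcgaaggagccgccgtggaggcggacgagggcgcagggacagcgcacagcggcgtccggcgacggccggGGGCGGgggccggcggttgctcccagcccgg
Emg1: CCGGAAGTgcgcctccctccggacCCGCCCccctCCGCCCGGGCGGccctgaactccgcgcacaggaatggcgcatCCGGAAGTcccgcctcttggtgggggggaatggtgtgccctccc

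Among the 5 genes of RNA polymerase I transcription, 4 were lower in DP than in ProT and Ubtf was not called. Polr1b, the second-largest subunit of the enzyme, had log2 signals of 11.17 and 11.49 in HSC, 11.47 and 10.82 in ProT and 9.53 and 9.45 in DP. Both DP values lay more than 1 unit below every other value, and Polr1b fell by 1.66 ± 0.22 (SE) from ProT, 3.15-fold (adjusted p = 0.0027), and 3.59-fold from HSC. Polr1a, the largest and catalytic subunit, read 10.22 and 10.24 in HSC, 10.39 and 9.94 in ProT and 9.14 and 8.90 in DP. It was low on the DP arrays alone, and fell by 1.14 ± 0.16 (adjusted p = 0.0035). Polr1c, a subunit shared with RNA polymerase III, read 11.41 and 10.51 in HSC, 11.34 and 11.31 in ProT and 10.35 and 10.35 in DP. One HSC array was nearly as low as DP. The fall of 0.98 ± 0.27 from ProT was called (adjusted p = 0.0394, but 0.0541 under cyclic loess) and the change of -0.61 from HSC was not (adjusted p = 0.148).

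The 2 initiation factors of the list had the smallest changes of the 5. Rrn3, which brings the polymerase to the promoter, read 10.93 and 11.08 in HSC, 11.08 and 10.92 in ProT and 10.65 and 10.51 in DP, and fell by 0.42 ± 0.10 from ProT (adjusted p = 0.0268). Ubtf, which binds along the ribosomal RNA genes and holds them open, read 11.23 and 11.63 in HSC, 11.60 and 11.29 in ProT and 11.58 and 11.54 in DP. Its DP values lay among those of the other arrays, with a change of 0.11 ± 0.16 from ProT and a 95% interval of -0.29 to 0.52, which excludes the median fall of the set. The sign of that change turned when each array was centred on its median.

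Box C/D particles guide methylation of ribosomal RNA. All 4 genes of that group, the particle core with Nolc1, were lower in DP than in both other populations. Fbl, the methyltransferase, read 11.35 and 11.45 in HSC, 11.40 and 11.27 in ProT and 10.59 and 10.45 in DP. It fell by 0.81 ± 0.09 from ProT (adjusted p = 0.0014). Nolc1, a chaperone of the particles, read 9.52 and 9.55 in DP against 10.92 and 10.39 in ProT and 10.66 and 10.69 in HSC, and fell 2.17-fold from ProT. The scaffold proteins Nop56 and Nop58 fell by 0.61 and 0.80, and in all 4 genes the DP arrays were lowest. A second probe set named for Fbl changed by -0.92 from ProT to DP, and one for Mrto4, a large subunit factor taken up below, by -0.99. The sources used here do not say which locus each probe set of such a gene covers, so for Fbl, Mrto4, Odc1 and Wdr12 the values used may not come from the gene itself. Among genes with a single probe set, the probe set numbers run by chromosome. By that order the sets used for Mrto4 and Wdr12 lie outside the block of their gene's chromosome, and their other sets lie inside it.

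The box H/ACA core turns uridine into pseudouridine and also sits in telomerase. Its median change from ProT to DP was -1.12, beside -0.80 for the box C/D core with Nolc1. In both DP comparisons 4 of its 4 genes were lower. Dkc1, the pseudouridine synthase, read 10.75 and 11.01 in HSC, 10.51 and 10.54 in ProT and 9.56 and 9.40 in DP. Its values stepped down at both steps without overlap, by 0.36 ± 0.11 from HSC to ProT, which was not called (adjusted p = 0.0971), and by 1.04 ± 0.11 from ProT to DP, which was (adjusted p = 0.0012). Gar1 read 10.61 and 11.28 in HSC, 10.80 and 10.52 in ProT and 9.41 and 9.30 in DP, and fell 2.47-fold from ProT (adjusted p = 0.0069). Nhp2 fell 2.29-fold. Nop10 fell by 0.48 ± 0.10, the smallest fall of the group.

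Of the 14 small subunit genes, 10 were lower in DP than in ProT and 4, Imp3, Imp4, Emg1 and Bysl, were not called, with a median change of -0.80. Tsr1, a GTPase-like factor of late 40S maturation, read 9.63 and 9.75 in HSC, 9.99 and 9.69 in ProT and 8.75 and 8.56 in DP. The DP values stood well below the others, and Tsr1 fell by 1.19 ± 0.13, 2.27-fold (adjusted p = 0.0013). Nat10, which acetylates small subunit RNA, read 8.95 and 8.73 in DP against 10.13 and 9.71 in ProT and 9.91 and 9.98 in HSC, and fell 2.12-fold (adjusted p = 0.0035). Rrp9, a protein of the U3 particle, read 8.90 and 8.73 in DP against 10.18 and 9.47 in ProT and 9.58 and 9.88 in HSC. ProT replicate 1 was the high array there, and the fall of 1.01 ± 0.24 was called with an adjusted p of 0.024.

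Nop14 fell by 0.80 and its partner Noc4l by 0.91. Wdr43, Wdr75 and Heatr1, which belong to the subcomplex that binds the precursor during transcription, fell by 0.71, 0.94 and 0.80. The later factors Ltv1 and Rrp12, the second a factor of 40S export, fell by 0.77 and 0.91. In each of these 7 the DP arrays were the lowest of the 6. The fall of Ltv1 lost its call with the replicate number as a block (adjusted p = 0.0508).

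Imp3 and Imp4, which bind the U3 RNA together, were called in neither DP comparison. Imp3 read 11.93 and 11.46 in HSC, 12.09 and 11.89 in ProT and 11.89 and 11.80 in DP. Its DP values lay between the HSC arrays, and the change from ProT was -0.15 ± 0.17 (95% interval -0.56 to 0.26). Imp4 read 11.61 and 11.76 in HSC, 11.61 and 11.35 in ProT and 11.35 and 11.31 in DP, with the DP arrays just below the lower ProT array, and a change of -0.15 ± 0.11 (95% interval -0.42 to 0.12). Both intervals exclude the median change of the set from ProT to DP. Against HSC, both DP arrays of Imp4 lay below both HSC arrays, and its change of -0.36 ± 0.11 narrowly missed the call (adjusted p = 0.0519).

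Emg1, a methyltransferase of the small subunit RNA, ran the other way. It read 11.09 and 10.71 in HSC, 11.15 and 11.05 in ProT and 11.60 and 11.50 in DP. Both DP values were above all others, by 0.65 ± 0.14 over HSC, which was called (adjusted p = 0.0127), and by 0.45 ± 0.14 over ProT, which narrowly was not (adjusted p = 0.051). Bysl, a factor of 40S maturation, read 9.06 and 9.12 in HSC, 9.63 and 8.83 in ProT and 8.51 and 8.48 in DP. Its DP arrays were lowest, but ProT replicate 1 stood 0.80 above replicate 2, the widest ProT gap in the set, and the change of -0.73 ± 0.24 was not called (adjusted p = 0.0705).

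Of the 14 large subunit genes, 12 were lower in DP than in ProT, Wdr12 was higher and Nle1 was not called. Rrp1b, a nucleolar protein of 60S assembly, had the largest fall of the whole set. It read 10.36 and 10.58 in HSC, 10.56 and 10.05 in ProT and 8.23 and 8.15 in DP. The DP values were the lowest by a wide margin, and Rrp1b fell by 2.11 ± 0.18 from ProT, 4.33-fold (adjusted p = 0.000485), and 4.85-fold from HSC (adjusted p = 0.000274). Rrs1, which helps place the 5S RNA particle, read 7.82 and 7.77 in HSC, 8.07 and 7.41 in ProT and 6.18 and 6.02 in DP. It fell 3.13-fold from ProT (adjusted p = 0.0023), and its DP mean was the only population mean of the set below the median signal of all genes, 7.17. Gnl3, the GTPase nucleostemin, known for its level in stem and dividing cells, read 10.45 and 10.34 in HSC, 10.51 and 10.25 in ProT and 9.02 and 9.06 in DP. HSC and ProT overlapped, both DP arrays were low, and Gnl3 fell by 1.34 ± 0.11 from ProT (adjusted p = 0.000398).

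Nop16 read 10.51 and 10.39 in DP against 11.83 and 11.40 in ProT and 11.79 and 11.77 in HSC, and fell 2.25-fold from ProT (adjusted p = 0.0021). Nop2, a methyltransferase of the large subunit RNA, read 9.68 and 9.59 in DP against 10.97 and 10.35 in ProT and 10.51 and 10.64 in HSC, and fell 2.03-fold (adjusted p = 0.0111). The remaining falls of large subunit factors were smaller. Mrto4 fell by 0.96, Ebna1bp2 by 0.77, the GTPase Gtpbp4 by 0.74, Nip7 by 0.72 and Noc3l by 0.58. Noc3l was also lower on both ProT arrays than on both HSC arrays, by 0.42 ± 0.17, which was not called (adjusted p = 0.178). Its fall from ProT to DP lost its call with the replicate block (adjusted p = 0.0664). Nip7 was not called in DP against HSC (-0.48 ± 0.15, adjusted p = 0.0578). Nle1, a factor of late 60S maturation, read 8.47 and 8.37 in HSC, 8.74 and 8.22 in ProT and 8.23 and 8.20 in DP, so that its lower ProT array lay within the DP arrays, and its change was -0.27 ± 0.17 (95% interval -0.68 to 0.15).

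The 3 partners of the PeBoW complex, which act together on the large subunit precursor, split. Pes1 read 10.46 and 10.30 in HSC, 10.49 and 10.22 in ProT and 9.54 and 9.52 in DP, and fell by 0.82 ± 0.12 from ProT (adjusted p = 0.0032). Bop1 read 10.32 and 10.39 in HSC, 10.68 and 10.20 in ProT and 9.87 and 9.92 in DP, and fell by 0.55 ± 0.16 (adjusted p = 0.0459), a call that did not hold under quantile normalization (0.0557), cyclic loess (0.0575), the replicate block (0.0569) or a fit of the compared populations alone (0.0551). Wdr12 read 10.75 and 10.47 in HSC, 10.72 and 10.48 in ProT and 11.11 and 11.19 in DP. Both DP values were the highest of the 6, and Wdr12 rose by 0.55 ± 0.13 over ProT (adjusted p = 0.0235) and by 0.54 ± 0.13 over HSC (adjusted p = 0.0223). Of the 2 probe sets named for Wdr12 these values come from the one with the higher mean. Which of them covers the gene itself is not stated in the sources used. By the order of probe set numbers it is the other one, so the values above may not be of Wdr12 itself. That other probe set also read higher in DP, by 0.77 over ProT and 0.67 over HSC. It varied more over the 6 arrays. With each gene's most variable probe set fitted, all 40 calls in DP against ProT and all 39 in DP against HSC were kept. The rise of Wdr12 was thus called in both with that other probe set. With the probe set used, centring each array on its median took the rise over ProT to 0.37 and ended its call (adjusted p = 0.0824). The call over HSC ended too (0.38, adjusted p = 0.0754).

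**Figure D2:**
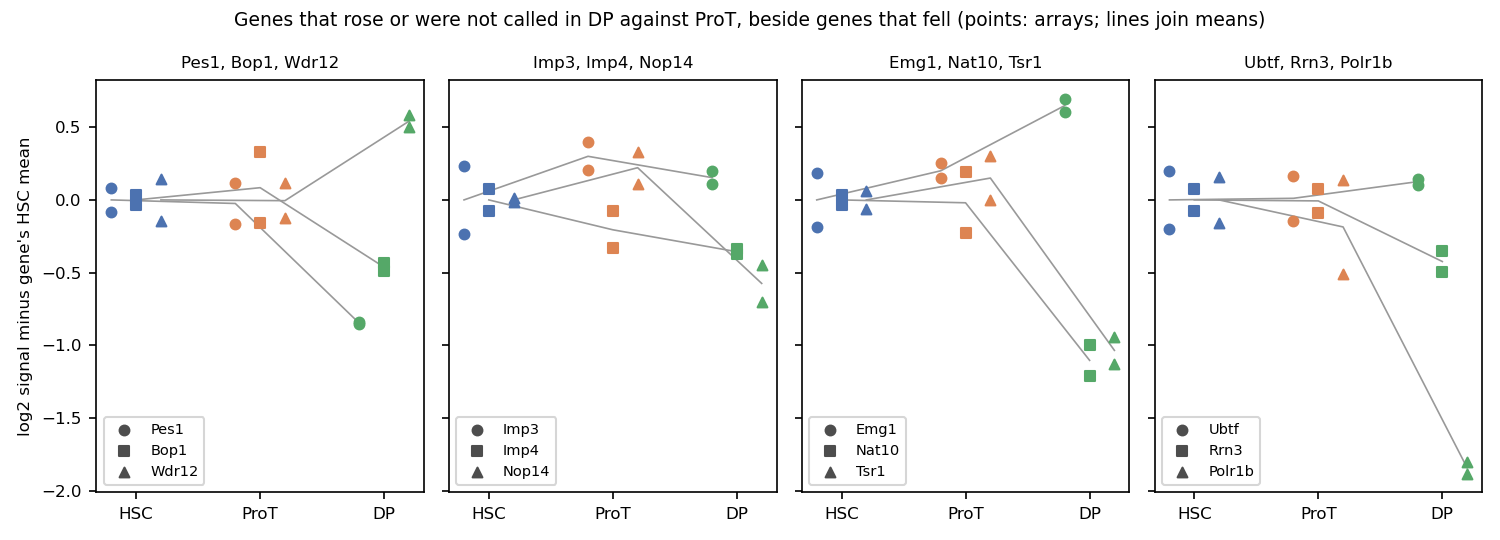
Log2 signal minus the gene's own HSC mean (vertical axis) in HSC, ProT and DP for 12 genes in 4 panels; points are arrays and lines join population means. Wdr12 and Emg1 end above 0 in DP, at 0.54 and 0.65, Ubtf and Imp3 stay near 0, and Pes1, Nat10, Tsr1 and Polr1b drop.

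Of the 4 general nucleolar proteins, 3 were lower in DP than in ProT, and all 4 were lower in DP than in HSC. Mybbp1a, a nucleolar MYB-binding protein, read 11.21 and 10.96 in HSC, 11.45 and 10.97 in ProT and 9.70 and 9.61 in DP. It was low on both DP arrays alone and fell 2.94-fold from ProT (adjusted p = 0.0014). Ddx21, an RNA helicase, read 10.32 and 10.30 in DP against 11.49 and 11.09 in ProT and 11.19 and 11.14 in HSC, and fell 1.97-fold (adjusted p = 0.0033). Npm1, the histone and ribosome chaperone nucleophosmin, read 11.78 and 12.22 in HSC, 11.58 and 11.66 in ProT and 11.02 and 11.08 in DP. Its values went down at each step without overlap, by 0.38 ± 0.15 to ProT, which was not called (adjusted p = 0.171), and by 0.57 ± 0.15 to DP, which was (adjusted p = 0.0321, but 0.0654 under cyclic loess). Ncl, nucleolin, which packs and processes the precursor, read 12.03 and 12.15 in HSC, 11.90 and 11.99 in ProT and 11.74 and 11.72 in DP. It also went down without overlap, yet by only 0.21 ± 0.08 from ProT to DP (adjusted p = 0.11), and reached a call only over the whole path, with a fall of 0.36 ± 0.08 (adjusted p = 0.0191) that quantile normalization (0.0593) and cyclic loess (0.0595) took past the threshold.

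Both polyamine enzymes fell at the second step. Odc1, ornithine decarboxylase, the rate-limiting enzyme, read 10.83 and 10.38 in HSC, 10.97 and 10.67 in ProT and 8.85 and 9.06 in DP. HSC and ProT overlapped and both DP values were lower by over 1 unit, a fall of 1.86 ± 0.18 or 3.64-fold from ProT (adjusted p = 0.000868). A second probe set named for Odc1 changed by -1.57. Srm, spermidine synthase, read 12.32 and 12.58 in HSC, 12.48 and 12.09 in ProT and 10.68 and 10.64 in DP, and fell 3.09-fold from ProT (adjusted p = 0.000728) and 3.47-fold from HSC (adjusted p = 0.000388).

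**Figure D3:**
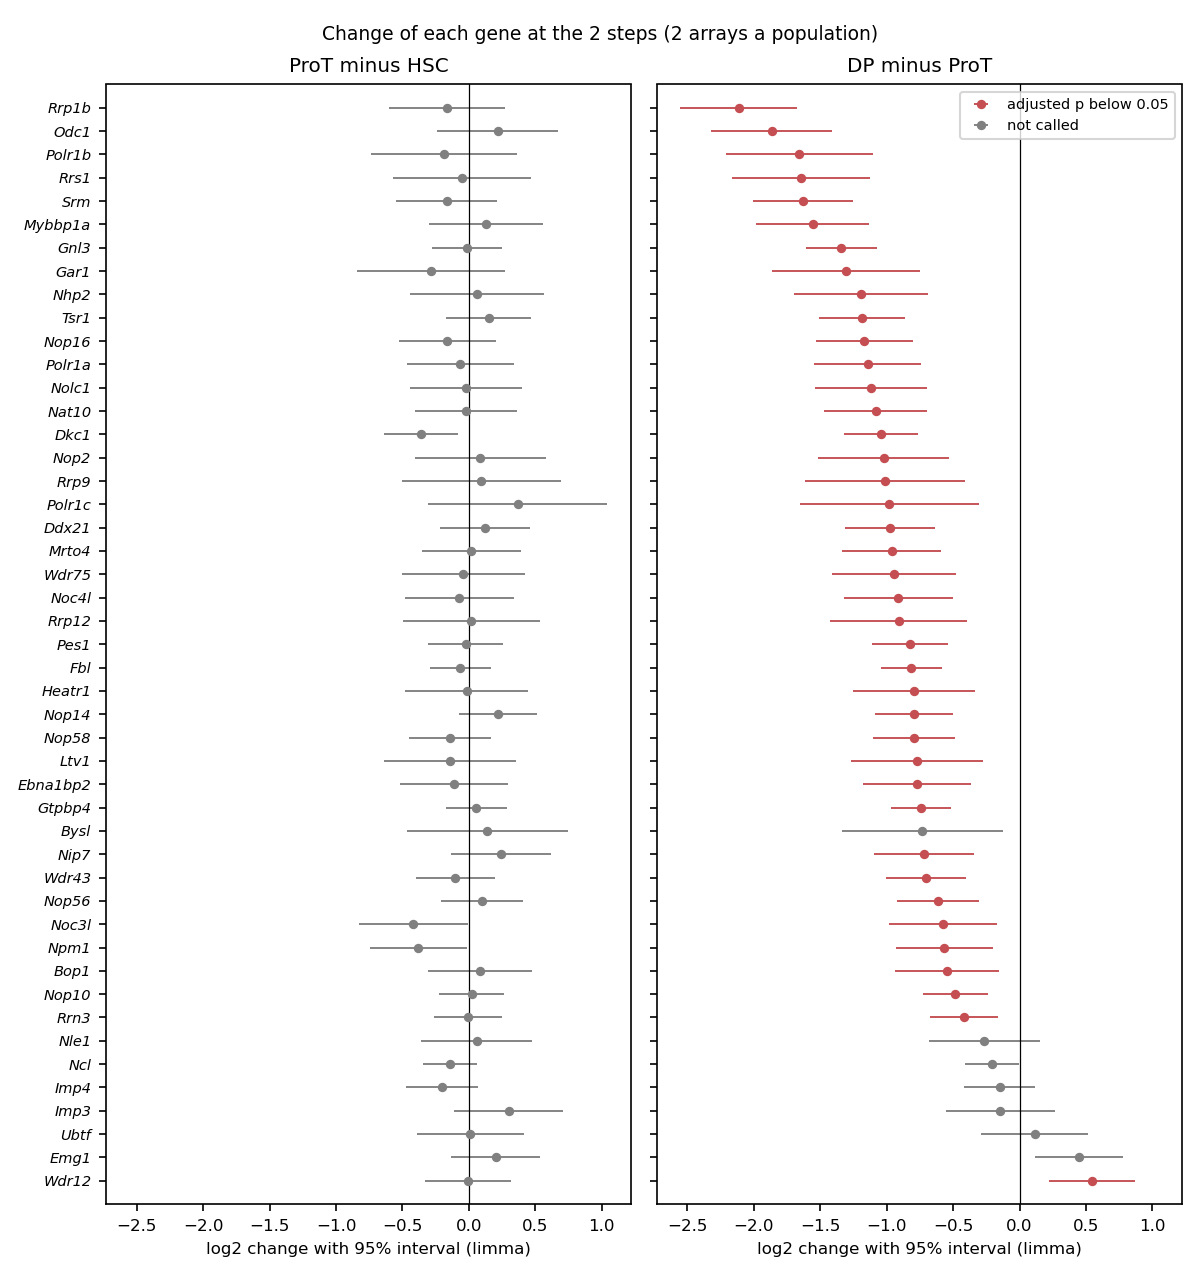
Log2 change with its 95% interval from limma (horizontal axes) of each of the 47 genes (vertical axis), for ProT minus HSC on the left and DP minus ProT on the right; red marks an adjusted p below 0.05. No gene is red on the left, and on the right the changes run from -2.11 for Rrp1b to 0.55 for Wdr12.

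Among the other genes of the pathway, falls in DP also outnumbered rises. Of 129 further ribosome biogenesis genes 121 were measured. In DP against ProT 61 were lower and 2 higher, with a median change of -0.46, where 18.1% of all genes were lower and 14.5% higher. In DP against HSC 62 were lower and 5 higher, where 18.8% of all genes were lower and 16% higher. In ProT against HSC 4 were lower and 2 higher, where 6.9% of all genes were lower and 7.85% higher, with a median of 0.03. By role, 22 of 40 small subunit genes, 18 of 42 large subunit genes, 6 of 9 genes of small nucleolar particle assembly and 13 of 23 genes of the exosome and RNase MRP were lower in DP than in ProT.

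The largest falls from ProT to DP in that wider list were in Rpp40, a protein of the RNase P and MRP family (-2.07, adjusted p = 0.000548), Naf1, an assembly factor of H/ACA particles (-1.73), Rpp25, another RNase P and MRP protein (-1.50), and Rcl1, a small subunit factor (-1.48). From HSC to DP the largest were Rpp40 (-2.31), Naf1 (-2.0), Shq1, a chaperone of Dkc1 (-1.55), and Pno1 (-1.45). The rises were few. Taf1b and Taf1d, of the SL1 factor that selects the RNA polymerase I promoter, rose by 0.58 and 0.31 from ProT to DP. Over HSC, Pop5 rose by 0.72, Taf1c, also of SL1, by 0.60, Taf1d by 0.53 and Ngdn by 0.46. Of the 7 RNA polymerase I genes of the wider list, 2 rose and 2 fell from ProT to DP. At the first step, Mphosph10, the partner of Imp3 and Imp4, fell by 0.62, Ruvbl2 by 0.52, Utp14a by 0.50 and Krr1 by 0.48, while Rpp25 rose by 0.84 and Pop7 by 0.33.

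Of 75 cytosolic ribosomal proteins 52 were measured. In DP against ProT 4 of the 52 were lower and none higher in limma, beside 18.1% of all genes lower and 14.5% higher, with a median of -0.31. Both DP arrays lay below both ProT arrays in 43 of the 52 and above them in 4. Over all genes these shares were 32.9% and 36.1%. In DP against HSC 2 were lower, beside 18.8% of all genes, with a median of -0.06. None was called in ProT against HSC, beside 7.85% of all genes higher and 6.9% lower, with a median of 0.24. The HSC arrays were apart, with list means of 12.17 and 11.76, against 12.25 and 12.18 in ProT. The DP means of 11.91 and 11.90 lay between the HSC arrays, so both medians against HSC lean on them. Of 21 proliferation genes, 12 were lower in DP than in ProT and none higher, with a median of -0.58, beside the same 18.1% of all genes lower. In DP against HSC 17 were lower, beside 18.8%. In ProT against HSC 2 of the 21 were lower and none higher, beside 6.9% of all genes lower and 7.85% higher. There 19 of the 21 changes were below 0, beside 52.1% of all genes, with a median of -0.20. No test compared the lists with one another.

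**Figure D4:**
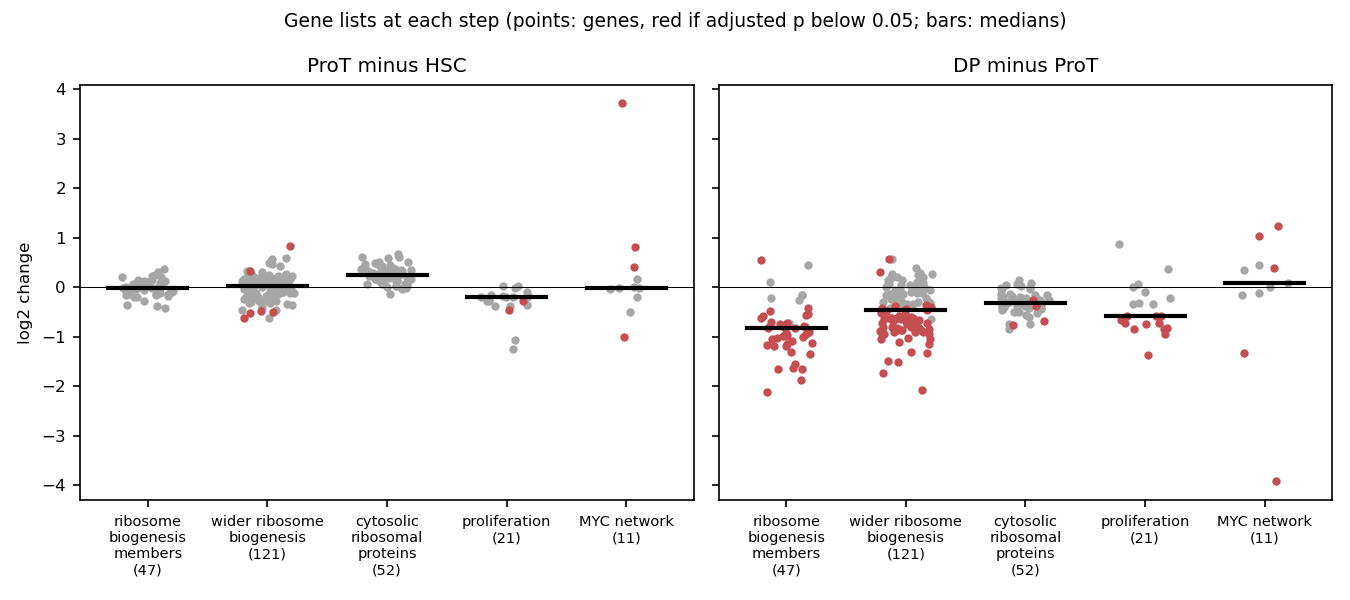
Log2 change (vertical axis) of each gene in 5 lists (horizontal axis, with the number measured) for ProT minus HSC on the left and DP minus ProT on the right; red points have an adjusted p below 0.05 and bars are medians. From ProT to DP the medians are -0.82 for the 47 genes, -0.46 for the wider list, -0.31 for ribosomal proteins, -0.58 for proliferation and 0.08 for the MYC network.

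The MYC network holds activators known to drive genes of this set, and their repressive partners; its part in the changes above was not tested. Myc had mean log2 signals of 12.40 ± 0.29 in HSC, 12.37 ± 0.04 in ProT and 11.04 ± 0.05 in DP (SD, n = 2 each). It was not called in ProT against HSC (-0.03 ± 0.14) and fell by 1.33 ± 0.14 from ProT to DP (adjusted p = 0.0012). Mycn read 8.22 and 6.96 in HSC, 11.39 and 11.22 in ProT and 7.49 and 7.29 in DP. It rose 13.1-fold from HSC to ProT (adjusted p = 0.0021), where none of the 47 genes was called; the HSC arrays were far apart, and the rise was 20.3-fold without HSC replicate 1 and 8.46-fold without HSC replicate 2. It fell 15.1-fold from ProT to DP (adjusted p = 0.000838). Among the repressive partners, Mxd4 rose by 0.81 and then by 1.23, and Mxd3 by 0.40 and then by 0.40. Mga, a large repressor of the network, rose by 1.04 from ProT to DP, and Mxd1 fell by 0.99 from HSC to ProT. The other 5, Mycl, Max, Mxi1, Mnt and Mlx, were not called at either step, with changes from ProT to DP of -0.16, 0.00, 0.08, -0.12 and 0.44.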

How the data were processed

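The deposited log2 values of the 6 arrays were used as the authors gave them. RMA and Partek are named in the submitters' processing notes, without versions or settings. RMA is built to put arrays on one intensity distribution, so only changes relative to other genes remain, and it compresses small differences near background. The medians over all probe sets still differed, at 6.90 and 6.91 in DP, 6.73 and 6.77 in HSC and 6.73 and 6.73 in ProT. Over the genes used they were lower in DP, at 7.11 and 7.13, against 7.18 and 7.14 in HSC and 7.24 and 7.24 in ProT. Of 35556 probe sets, 21789 were named for 1 gene, 1621 for several and 12146 for none in GEO's platform annotation, and only the first were used, 1 per gene by highest mean. Arrays have no read depth, and 2 arrays a population limit the precision.

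All 19938 genes were fitted with limma 3.58.1 (lmFit, eBayes) in R 4.3.3, with 1 mean per population over all 6 arrays and Benjamini-Hochberg adjustment over all genes; the fit was tested on simulated data. SE and 95% intervals are limma's. Levels of different genes were not compared. Alternatives covered scaling, probe set choice, a filter on dim genes, the prior, the threshold, the replicate number as a block and each array left out. All 47 genes are named by role, the wider list by its 4 largest called, non-overlapping rises and falls per comparison, and the MYC network in full. The genes, lists and rules were chosen with earlier results of these data known.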

Additional observations from a re-analysis of the deposited data

How the results depend on the processing

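No call among the 47 genes changed direction under any alternative run. Lower calls in DP against ProT numbered 39, with 24 at an adjusted p below 0.01, 17 at 2-fold or more, and 20 to 38 when arrays were left out. Higher calls there numbered 1, with 2 under the replicate block, quantile normalization, cyclic loess, the filter on dim genes, the trended robust prior and the fit of the compared populations alone, 0 under median centring, at an adjusted p below 0.01 and at 2-fold, and 0 to 2 without single arrays. In DP against HSC the 37 lower calls became 15 at 2-fold and 22 to 41 without single arrays, and the 2 higher calls became 1 under median centring, 0 at an adjusted p below 0.01 or at 2-fold, and 0 to 2 without single arrays. In ProT against HSC leaving out arrays gave 0 to 2 higher and 0 to 4 lower. For the difference of the 2 steps the 18 lower calls became 3 at an adjusted p below 0.01 and 2 to 28 without single arrays; higher calls, 0 in the main analysis and 0 to 0 without single arrays, became 1 with the mean of probe sets or the most variable probe set. Median centring moved the median change of all genes in DP against ProT to -0.16, and that of the 47 genes to -1.0, with -1.08 in DP against HSC. Without single arrays these medians ran from -1.03 to -0.69 and from -0.95 to -0.84, and in ProT against HSC from -0.20 to 0.16. The labels do not say whether the replicate numbers pair the arrays. Over all genes, deviations of same-numbered arrays correlated at 0.06 between HSC and ProT, -0.02 between HSC and DP and -0.04 between ProT and DP. These values do not settle pairing in the 47 genes, where replicate 1 lay above replicate 2 in 43 in ProT, 40 in DP and 19 in HSC. With the replicate block 37 of the 40 calls in DP against ProT and all 39 in DP against HSC were kept. Under a left-out array the lone partner was assumed to vary like the others. Apart from the 2-fold shares given above, the share of all genes called is not given for any alternative. These counts therefore do not show whether calls changed in the 47 genes or across the whole array. Where a call was lost, the cause was not tested. The filter on dim genes kept all 47 genes.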
